A study of Mus musculus with 8 samples.

Results

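The Drd1a-tdTomato sort of mouse frontal isocortex held 59 cells that carried the transcripts of layer 6b, the deepest and thinnest layer of the neocortex, out of 11494 cells in that sort and 22876 cells in both sorts of the series. Cells were chosen by their measured counts: a cell was a layer 6b cell when it had a count above 0 for Cplx3 or Nxph4, a count above 0 for at least 3 of the 6 markers Ctgf, Cplx3, Nxph4, Nr4a2, Tmem163 and Moxd1, and a count of 0 for Gad1 and Gad2, the enzymes that make GABA. Cells were taken from mice at postnatal day 7 (P7), dissociated, sorted live for red fluorescence and profiled by droplet single-cell RNA sequencing. The fluorescence came from Drd1a-tdTomato, a bacterial artificial chromosome transgene in which the regulatory region of the dopamine D1 receptor gene drives tdTomato. The sort was meant to collect cells with that reporter on, and its purity was not checked here. Control mice were Drd1a-tdTomato; Foxp2 flox/flox and carried no Cre, so both groups had the floxed alleles and the reporter. Conditional knockout (cKO) mice were Drd1a-tdTomato; Emx1-Cre; Foxp2 flox/flox, in which Cre acts in the Emx1 lineage that gives rise to the excitatory neurons and glia of the cortex. Controls were littermates, on a C57BL/6J background. Each genotype had 2 libraries, and nothing in the labels says how many animals went into one. Control 1 and cKO 1 were prepared and sequenced together as batch 1, and control 2 and cKO 2 as batch 2; cKO 2 came from a male and the other 3 from females.

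Layer 6b is what remains after birth of the subplate, the first neurons to be born in the cortex. Subplate neurons guide growing thalamic axons and form early transient circuits, and many of them die before adulthood. Those that survive in rodents lie just above the white matter, are mostly glutamatergic, and respond to arousal signals such as orexin, acetylcholine and dopamine. Ctgf (a secreted matricellular protein), Cplx3 (a complexin, which regulates vesicle fusion), Nxph4 (a neurexophilin, a secreted ligand of neurexins), Nr4a2 (the orphan nuclear receptor Nurr1), Tmem163 (a zinc transporter of vesicles) and Moxd1 (a monooxygenase) are known labels of these cells. Foxp2, the gene removed in the cKO, encodes a forkhead transcription factor that is strongest in layer 6 of the cortex.

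Promoter sequences are shown for a marker of the rule and for a peptide gene that stood out in the class comparison, because both hold the 6 letters AGGTCA, the half-site read by nuclear receptors, the protein family of Nr4a2. The 250 bases before the annotated start were read for 26 layer 6b genes (the 6 markers and a list of 20 other genes known from this layer), of which 19 were in the RefSeq promoter table (GRCm38.p6). On either strand, AGGTCA or its reverse complement TGACCT was present in 6 of those 19 genes (31.6%) and in 4260 of the 27025 genes of the whole table (15.8%). The 6 were Cplx3, Trh, Cdh18, Pls3, Sema5a and Hcrtr2. A match describes letters only, and binding was not measured. Both sequences are written 5′ to 3′ on the strand of the gene, in lower case with the match in capitals. The Cplx3 promoter lies at chr9:57606282-57606531 on the minus strand, and its match begins 222 bases before the start. The Trh promoter lies at chr6:92244651-92244900 on the minus strand, and its match, which reads as the reverse complement, begins 57 bases before the start.
Cplx3: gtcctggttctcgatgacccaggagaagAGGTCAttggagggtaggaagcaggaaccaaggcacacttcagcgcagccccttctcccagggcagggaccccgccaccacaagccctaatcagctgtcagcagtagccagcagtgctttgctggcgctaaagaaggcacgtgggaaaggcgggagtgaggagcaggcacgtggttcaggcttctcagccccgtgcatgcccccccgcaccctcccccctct
Trh: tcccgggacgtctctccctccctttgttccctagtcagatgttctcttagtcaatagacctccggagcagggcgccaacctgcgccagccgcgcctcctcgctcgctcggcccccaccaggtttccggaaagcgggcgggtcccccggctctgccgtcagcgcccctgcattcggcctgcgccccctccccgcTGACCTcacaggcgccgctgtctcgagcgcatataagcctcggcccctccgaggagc

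The markers that chose the cells were unevenly present among them. Of the 59 cells, 30 had 3 of the 6 markers, 20 had 4, 9 had 5 and none had 6. Nxph4 was detected in 50 cells, Ctgf in 47, Tmem163 in 42, Cplx3 in 33, Nr4a2 in 25 and Moxd1 in 18. Upper layer cells of the same libraries, which should lack these genes, had Ctgf in 5 of 576 cells (0.868%) and Nxph4 in 2. Their median was 13527 counts per cell against 21955 in layer 6b cells. Cells that passed the layer 6b rule were not counted among them, and 8 of the 59 would have passed the upper layer gate. The rule itself thus lowered these shares, so they do not measure background in full. Moxd1 was found in 112 of those 576 upper layer cells (19.4%), so that it set layer 6b apart from them far less than Ctgf or Nxph4 did. Layer 6 corticothalamic cells, again without the 59, had Ctgf in 49 of 1234 cells, Nxph4 in 70, Moxd1 in 121 and Tmem163 in 210. These values describe the choice of cells and were not tested. Just outside the rule stood 134 cells with exactly 2 markers that met the other conditions, 22 cells with 3 or more markers but neither Cplx3 nor Nxph4, and 29 cells with 3 or more markers that had a Gad1 or Gad2 count. Cells with 3 or more genes of a vascular or Cajal-Retzius list (given in the next paragraph) were then left out. That left 58 of the 134 cells with 2 markers, 26 cells with 3 and 27 cells with 4 or 5. Kcnab1 stood at 93.3 CPM (counts scaled to 1000000 summed counts) in the 58 cells, 139 CPM in the 26 and 227 CPM in the 27. Lpar1 stood at 25.8, 28.2 and 82.7 CPM in the same 3 sets and Tbr1 at 225, 303 and 320 CPM. Serpini1, the neuroserpin gene, was at 112, 271 and 230 CPM. Foxp2 was at 83.4, 67.8 and 34.2 CPM, but these sets pool control and cKO cells. By library Foxp2 fell in control 1 (129, 74.2 and 26.1 CPM) and hardly moved in control 2 (70.7, 71.1 and 66.4 CPM). It was at 31.4, 63.7 and 0 CPM in cKO 1 and at 17.1, 0 and 9.39 CPM in cKO 2.

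Most of these cells also had the genes of layer 6 glutamatergic neurons, but 6 of the 59 went against their label. In these 6 cells, 3 or more genes of the vascular lists (endothelial: Cldn5, Flt1, Pecam1, Ly6c1 and Esam; pericyte and fibroblast: Pdgfrb, Rgs5, Vtn, Col1a1, Col1a2 and Dcn) or of a Cajal-Retzius list (Reln, Trp73, Lhx5, Lhx1, Ebf3 and Nhlh2) were detected. Vascular genes marked 4 of them, 1 in each library, and Cajal-Retzius genes marked 2, in control 1 and cKO 2. None of the 6 had a count for Slc17a7, which marks cortical glutamatergic neurons. None had a count for Drd, the dopamine receptor gene as the table names it. The 4 vascular cells held 908 of the 916 endothelial counts found in all 59 cells. Totals of the 6 cells ran from 14061 to 115559 counts, and the largest, in cKO 1, supplied 62.2% of all counts summed over the 4 cells of that library. Of the 53 cells that remain, control 1 had 18, control 2 had 24, cKO 1 had 3 and cKO 2 had 8. Among them Slc17a7 was detected in 48, Tbr1 in 49 and Drd in 47. Other lists were not used to leave cells out. A kept cell of control 2 had the oligodendrocyte precursor genes Pdgfra, Cspg4, Olig1 and Olig2 (32 counts) and 4 dividing-cell genes (27 counts). It had no Slc17a7 or Tbr1 count. A kept cell of cKO 2 had the same 4 precursor genes (26 counts) and no Slc17a7, Tbr1 or Drd count. In the same library order, summed precursor levels were 110, 291, 28.5 and 439 CPM, against 237, 467, 241 and 613 CPM in corticothalamic cells. A median of 8 of 19 other layer 6b genes was detected per remaining cell (lowest 1, highest 14), against a median of 4 (lowest 2, highest 5) in the 6 cells. The remaining cells had a summed endothelial level between 0 and 29.2 CPM per library, with all 5 genes at 0 in cKO 1, and a summed Cajal-Retzius level between 14.3 and 36.6 CPM, with Trp73, Lhx5, Lhx1 and Ebf3 at 0 in each library. Results are therefore given for the 59 cells of the rule and for the 53; leaving out the 6 cells was chosen after the data had been seen.

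**Figure D1:**
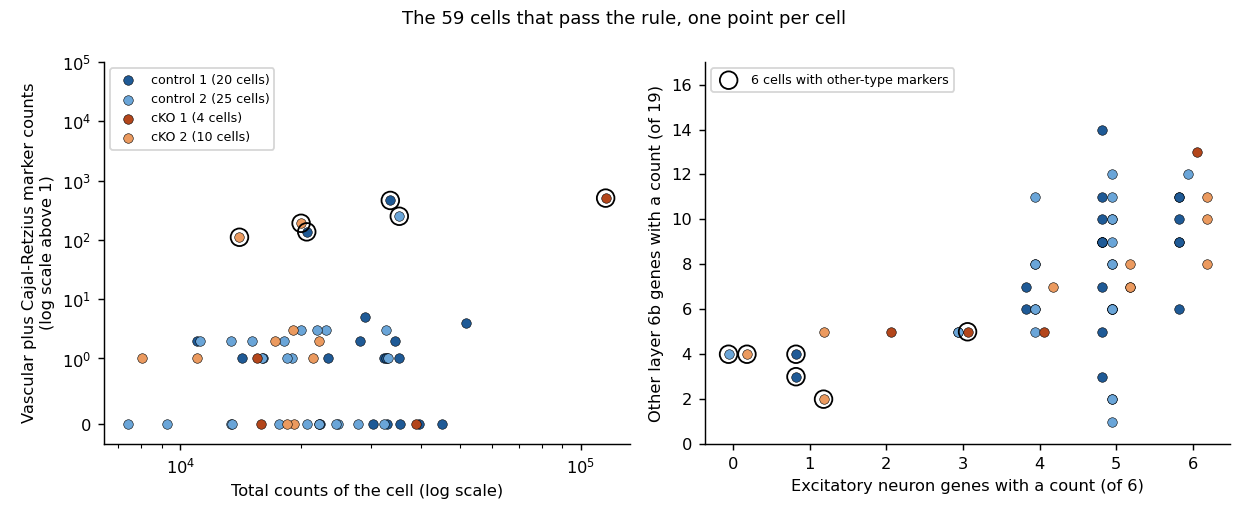
Each point is 1 of the 59 cells that pass the rule, coloured by library, with the 6 cells that carry markers of other types circled. Left, total counts of the cell (log axis) against the summed counts of vascular and Cajal-Retzius markers (log axis above 1); right, the number of excitatory neuron genes against the number of other layer 6b genes with a count, with points of 1 library shifted sideways for visibility. The circled cells stand far above the rest on the left, and the cKO 1 cell with 115559 counts lies farthest right.

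Depth differed between cells and libraries. Where 4 values are given by library, the order is control 1, control 2, cKO 1, cKO 2. The 4 Drd1a-tdTomato libraries held 2395 to 3206 cell barcodes each, against a target of 1000 in the labels, with 27323298 to 36379194 counts per library. Between 43 and 56 barcodes of each library also occurred in another library of the sort. A layer 6b cell had a median of 32458.5, 20084, 27330 and 18819.5 counts by library, while the median of all cells lay between 7198 and 12815. A rule that asks for several detected genes favours deep cells, and only 3 of the 59 cells had under 10000 counts. Summed over its layer 6b cells, the libraries gave 601032, 513431, 185732 and 170880 counts.

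Layer 6b cells made up a smaller share of the cKO libraries than of the control libraries. They were 20 of 3206 cells in control 1 (0.624%, exact 95% binomial interval 0.381 to 0.962%), 25 of 2395 in control 2 (1.04%, 0.677 to 1.54%), 4 of 2812 in cKO 1 (0.142%, 0.0388 to 0.364%) and 10 of 3081 in cKO 2 (0.325%, 0.156 to 0.596%). Both cKO shares lay below both control shares, and the mean was 0.834% ± 0.297 (SD, n = 2) in the controls and 0.233% ± 0.129 (SD, n = 2) in the cKO, a difference of -0.600 percentage points. An exact two-sided permutation test over libraries gave p = 0.333, the smallest that 2 libraries against 2 can give. Within batch 1 the cKO share was 22.8% of the control share, and within batch 2 it was 31.1%. With cells that carry other-type markers left out of both the layer 6b cells and the total, shares were 0.575, 1.12, 0.109 and 0.274% by library, again without overlap. Among cells with 10000 or more counts, where depth limits the rule less, the shares were 1.59, 1.44, 0.416 and 1.08% in the same order. Counting intervals of control 1 and cKO 2 overlapped in the 59 and in the 53 cells, and among the deep cells each cKO interval overlapped each control interval, as the plot of shares by library shows. With at least 4 markers required the difference was -0.210 percentage points, and with gates on cells thinned to 5000 counts it was -0.168, with both cKO shares below both control shares in each case.

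**Figure D2:**
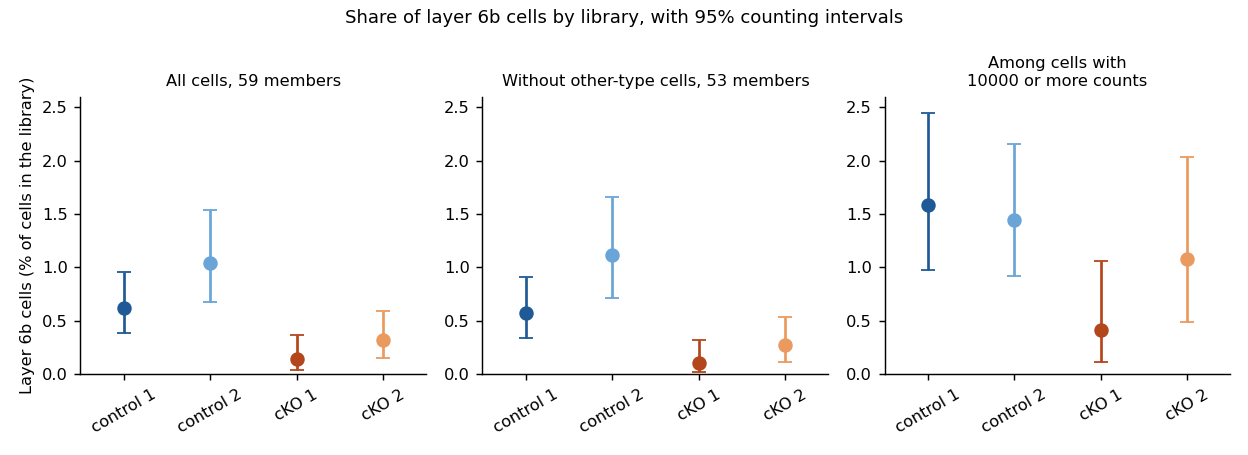
Share of layer 6b cells in each library as a percentage of its cells, with exact 95% binomial intervals that cover counting error only. The panels show all 59 cells, the 53 cells left without other-type cells, and the share among cells with 10000 or more counts; both cKO libraries lie below both controls in each panel, with cKO 2 nearest to them on the right (1.08%).

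Corticothalamic and upper layer cells of the sort were also a smaller share of the cKO libraries. Layer 6 corticothalamic cells, gated in the same way on Syt6 or Rprm and 3 of 6 list genes, were 10.9, 18.0, 6.37 and 8.83% of cells by library. Of the layer 6b and corticothalamic cells combined, layer 6b cells were 5.39, 5.47, 2.19 and 3.55% by library. Upper layer cells were 5.18 and 8.98% of the control libraries and 3.31% of each cKO library. Layer 5 pyramidal tract cells were 1.47, 3.63, 1.39 and 1.49% by library, so that their groups overlapped. Cells were sorted on a reporter of the D1 receptor gene. A lower share of layer 6b cells in the tissue and a lower share of them with the reporter on therefore cannot be told apart here. The rule also needs marker transcripts to be detected, and lower detection of them in cKO cells was not separated from either. Median counts of all cells were 8130.5, 12815, 7215 and 7198 by library.

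Foxp2, the targeted gene, was detected in 17 of the 53 cells (32.1%), 428 of 1234 corticothalamic cells (34.7%) and 47 of 576 upper layer cells (8.16%). These shares pool control and cKO cells, whose proportions differ between the classes. Depth differed too, with medians of 21955, 16916.5 and 13527 counts per cell. By library, 6 of 18, 9 of 24, 1 of 3 and 1 of 8 of the 53 cells had a count for Foxp2. Summed over the 59 cells its level was 39.9, 64.3, 10.8 and 11.7 CPM by library. In the 53 cells the levels were 43.9, 69.0, 28.5 and 7.31 CPM, and the cKO 1 value rests on a single cell with 2 counts. In either set each cKO value was below each control value, an order that 23.6% of all tested genes had over the 59 cells and 17.1% over the 53 (14.5% and 13.9% had the opposite order). The difference did not pass the test. The log2 fold change was -2.03 ± 0.75 (SE, adjusted p = 0.536, edgeR quasi-likelihood test with Benjamini-Hochberg adjustment) over 59 cells and -1.92 ± 0.85 (adjusted p = 1.00) over 53. In corticothalamic cells of the same libraries Foxp2 stood at 100, 78.1, 18.1 and 22.3 CPM by library. The deposited table counts 3′ ends, and whether the reads lie in the floxed part is not given in the sources used here, so Foxp2 checks the labels in part. Single cells weighed on the control sums: 1 cell of control 1 held 10 Foxp2 counts and 1 cell of control 2 held 11, while no other layer 6b cell held more than 6.

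Drd, the symbol the table gives to a dopamine receptor gene, was higher in layer 6b cells than in the other classes. It was detected in 47 of the 53 cells (88.7%), against 620 of 1234 corticothalamic cells (50.2%, median 16916.5 counts per cell), 80 of 219 layer 5 pyramidal tract cells (36.5%, median 20761) and 139 of 576 upper layer cells (24.1%, median 13527). In single control cells it ranged from 70.0 to 579 CPM in control 1 (median 312) and from 0 to 671 CPM in control 2 (median 243). Summed over the 53 cells, Drd stood at 327, 257, 128 and 132 CPM by library. In each library that level was above the level in corticothalamic cells, which was 129, 117, 59.7 and 39.9 CPM in the same order. The difference from corticothalamic cells was 1.26 ± 0.20 on the log2 scale (SE, adjusted p = 4.04e-08, edgeR), from layer 5 pyramidal tract cells 2.24 ± 0.23 (adjusted p = 7.57e-07) and from upper layer cells 2.71 ± 0.25 (adjusted p = 1.63e-08). Over all 59 cells the difference from corticothalamic cells was 0.93 ± 0.24 and missed the threshold (adjusted p = 0.0532), while the other two passed it. Since the sort selected for a reporter of the D1 receptor gene, the level of Drd in these cells describes sorted cells. Ppp1r1b, which encodes DARPP-32, a target of D1 signalling, was higher in the 53 cells than in pyramidal tract cells by 3.83 ± 0.42 (adjusted p = 1.67e-06) and than in upper layer cells by 2.48 ± 0.32 (adjusted p = 5.37e-06), and its difference from corticothalamic cells was 0.59 ± 0.26 (adjusted p = 0.173).

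Between genotypes, Drd in layer 6b cells was lower in both cKO libraries than in both controls without passing the test. Over 59 cells it was 298, 240, 48.5 and 105 CPM by library, a log2 fold change of -1.69 ± 0.47 (adjusted p = 0.237, edgeR). With the batch as a block the adjusted p was 0.0432, and without cKO 2 it was 0.0198. Over the 53 cells the log2 fold change was -1.20 ± 0.40 (adjusted p = 1.00), and it did not pass with the block. Within batch 1 the cKO level of the 53 cells was 39.2% of the control level, and within batch 2 it was 51.2%. Corticothalamic cells had 46.2 and 34.1% in the same batches. Sfxn1, a mitochondrial serine transporter gene, stood at 1450, 1479, 299 and 753 CPM by library over the 53 cells, a log2 fold change of -1.45 ± 0.43 (adjusted p = 1.00) that passed with the block. It was also lower in both cKO libraries of each of the other 3 classes, as the plot of these 3 genes shows.

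**Figure D3:**
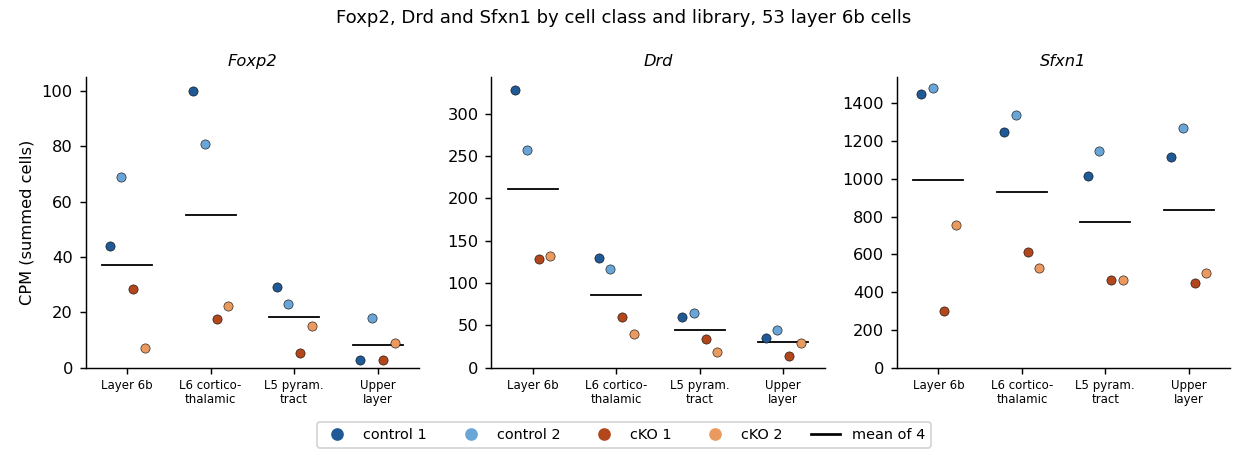
Levels of Foxp2, Drd and Sfxn1 in CPM for the 53 layer 6b cells and 3 other classes, 1 point per library and a bar at the mean of the 4 libraries. In layer 6b cells the 2 control points lie above the 2 cKO points for each gene, and Drd is higher in layer 6b cells than in the other classes in each library.

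Across all genes, the genotype comparison of layer 6b cells called few genes, and Rassf9, Fn1 and Apln stood between 0 and 3.66 CPM once the 6 cells with other-type markers were left out. Over the 59 cells 5 of 6370 genes tested passed (0.0785%), 4 higher (0.0628%) and 1 lower (0.0157%) in the cKO. Rassf9 stood at 8.32, 13.6, 221 and 140 CPM by library, a log2 fold change of 4.18 ± 0.56 (SE, adjusted p = 0.0133, edgeR). Fn1, which encodes fibronectin, stood at 18.3, 39.0, 673 and 146 CPM by library, and its log2 fold change was 4.06 ± 0.70 (adjusted p = 0.0478). Apln, the gene of the peptide apelin, had 27 counts in the cKO against 1 in the controls. Among the 53 cells, Rassf9 had no count and Fn1 was at 3.66 CPM in control 1 and 0 in the other 3 libraries. The vascular cell of cKO 1, which held 62.2% of that library's counts, is part of the 59-cell sums of these genes. The gene lower in the cKO, mt-Co2, a mitochondrial gene of the respiratory chain, had 129 counts in the controls and 0 in the cKO, at least 13.8-fold higher in the controls against a floor of 3 counts over the cKO group. It was also lower in the cKO libraries of corticothalamic cells, at 68.4, 224, 6.19 and 30.5 CPM by library.

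Over the 53 cells none of 5695 genes passed the genotype test in edgeR (0%) or in DESeq2, and 138 had an unadjusted p under 0.05. With the batch as a block, 80 genes passed over the 59 cells and 6 over the 53. The 6 were mt-Co2 and Sfxn1, lower in the cKO, and Tshz2, Npy, Rprm and mt-Atp6, higher; Rprm and mt-Atp6 were named after their values were seen. Tshz2, a zinc finger transcription factor gene, stood at 84.1, 81.6, 855 and 110 CPM by library, so that cKO 1, with 3 cells, lay far above the rest. Npy, the gene of neuropeptide Y, stood at 31.1, 37.6, 14.3 and 409 CPM in the same order, high in cKO 2 alone. Sulf1, an enzyme gene that edits heparan sulfate, stood at 49.4, 75.3, 0 and 7.31 CPM. No gene of the layer 6b list, the receptor list or the transcription factor list passed in either set without the block. Among the 53 cells the median log2 fold change was 0.23 over 12 other layer 6b genes tested and 0.11 over 12 receptor genes, against -0.03 over all genes. Both medians had the opposite sign over the 59 cells, -0.29 over 11 layer 6b genes and -0.50 over 11 receptor genes, against -0.04 over all genes. Leaving out cKO 2 gave 494 calls over the 59 cells and 45 over the 53; cKO 1 is then the lone cKO library and is assumed to vary like the controls. Without control 1, control 2 or cKO 1 the 59 cells gave 8, 17 and 8 calls.

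Layer 6b cells were next compared, library by library, with 3 other excitatory classes of the sort: 1234 layer 6 corticothalamic cells, 219 layer 5 pyramidal tract cells and 576 upper layer cells. Against corticothalamic cells 307 of 10361 genes (2.96%) were higher in the 53 cells and 404 (3.9%) lower. Against pyramidal tract cells 277 of 7656 (3.62%) were higher and 264 (3.45%) lower, and against upper layer cells 438 of 8772 (4.99%) were higher and 455 (5.19%) lower. In all, 711 (6.86%), 541 (7.07%) and 893 (10.2%) genes passed in these 3 comparisons. Genes higher in each of the 4 libraries, whether called or not, were 10.3, 12 and 13.9% of those tested, and genes lower in each were 15.1, 13.8 and 15.3%. Over the 59 cells, 321 (2.99%), 163 (1.95%) and 328 (3.64%) passed: 203 (1.89%) were higher and 118 (1.1%) lower against corticothalamic cells, 84 (1%) and 79 (0.943%) against pyramidal tract cells, and 201 (2.23%) and 127 (1.41%) against upper layer cells. The 3 comparisons share the same layer 6b cells. The cells were gated on counts from these same profiles, so the genes read by the gates were not tested, and a gene that travels with them shares in that choice. Leaving out a single library moved these counts by more than 1.5 times: over the 59 cells the calls against corticothalamic cells went from 321 to 73 without control 1, to 793 without cKO 1 and to 99 without cKO 2. Against pyramidal tract cells they went from 163 to 10 without control 1, 11 without control 2 and 600 without cKO 1, and against upper layer cells from 328 to 13 without control 1, 854 without cKO 1 and 46 without cKO 2.

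Genes known from layer 6b that the rule did not read were mostly higher in these cells. Of a list of 20 such genes, 17 could be tested against corticothalamic cells in the 53 cells, and 11 were higher, 1 lower and 5 did not pass. Their median log2 difference was 1.59 against -0.08 over all genes tested. Against pyramidal tract cells 8 of 12 were higher and 1 lower (median 1.77), and against upper layer cells 10 of 14 were higher and 1 lower (median 2.38). Over the 59 cells 7 of 17, 6 of 13 and 9 of 12 were higher and none lower. The list was chosen with earlier results of these data known.

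Kcnab1, a subunit that modulates voltage-gated potassium channels, was among the most even of them. Its level was 207, 161, 285 and 168 CPM by library, and between 18.6 and 24.7 CPM in corticothalamic cells. Each layer 6b library stood above each library of the other classes, and the log2 difference was 3.05 ± 0.24 from corticothalamic cells (SE, adjusted p = 3.23e-34, edgeR), 3.68 ± 0.27 from pyramidal tract cells (adjusted p = 3.07e-09) and 3.42 ± 0.26 from upper layer cells (adjusted p = 4.56e-10). Trh, the gene of thyrotropin-releasing hormone and one of the promoters shown above, had 60.3, 27.2, 71.3 and 43.9 CPM by library. It was detected in 22 of the 53 cells, 90 of 1234 corticothalamic cells, 1 of 219 pyramidal tract cells and 3 of 576 upper layer cells. Its level was 6.42-fold that of corticothalamic cells (exact 95% interval 4.66 to 8.74), and 211-fold that of pyramidal tract cells (36.3 to 8466), where a single count was found. Both intervals cover counting error only. Lpar1, a receptor for lysophosphatidic acid, stood at 85.9, 35.6, 71.3 and 29.2 CPM against at most 5.98 CPM in corticothalamic cells, a log2 difference of 3.77 ± 0.51 (adjusted p = 5.53e-11). Pls3, an actin-bundling protein gene, was higher than in corticothalamic cells by 1.52 ± 0.24 (adjusted p = 1.79e-08) and Sema5a, a semaphorin gene, by 1.16 ± 0.22 (adjusted p = 1.36e-05); the Sema5a call did not pass over the 59 cells (adjusted p = 0.0678). Sorcs1, a sorting receptor gene, went the other way, with 0, 41.8, 0 and 14.6 CPM in layer 6b cells and 32.9 to 46.2 CPM in corticothalamic cells, and its difference did not pass over the 59 cells.

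**Figure D4:**
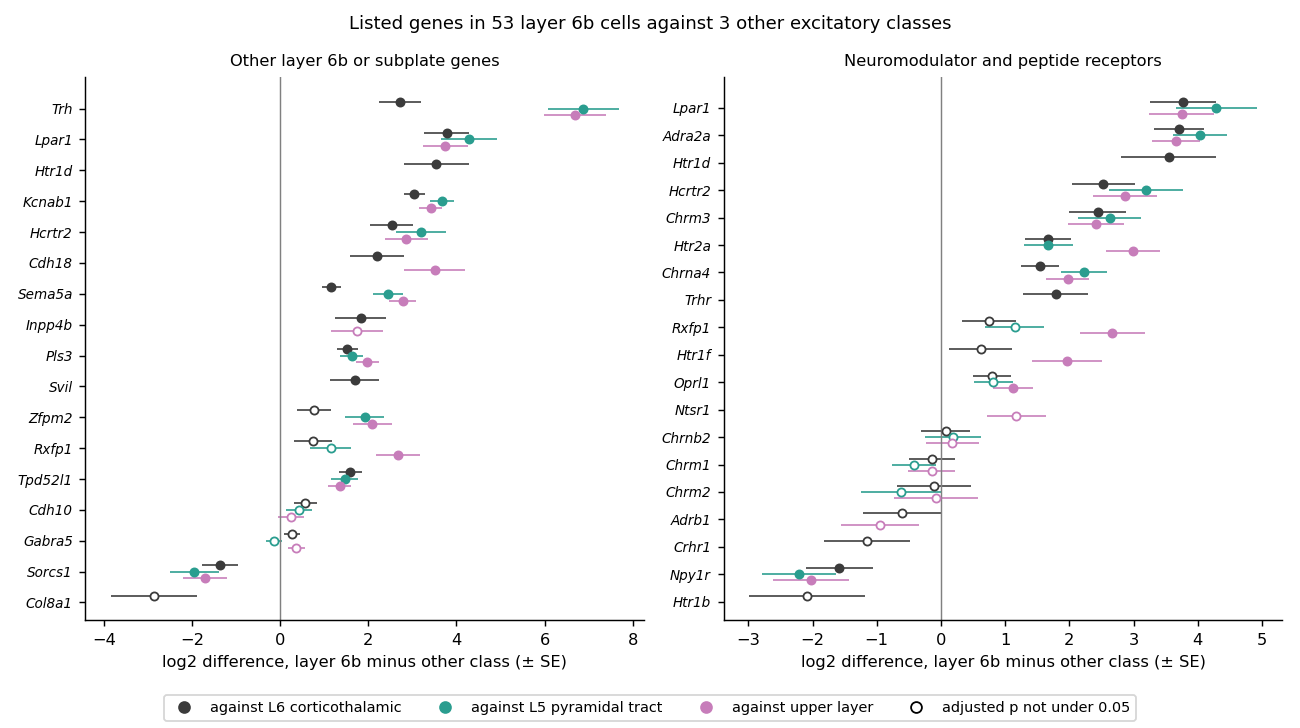
Log2 differences of the 53 layer 6b cells from 3 classes for other layer 6b genes and for neuromodulator and peptide receptors; each point is a gene against 1 class with its standard error, filled where the adjusted p was under 0.05. Most filled points lie above 0, with Sorcs1 and Npy1r below it.

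Nxph3, a neurexophilin like the marker Nxph4, separated the classes widely. It stood at 238 CPM in both controls, 299 in cKO 1 and 205 in cKO 2, against 32.6 to 56.3 CPM in corticothalamic cells and at most 3.91 CPM in the other classes. The log2 difference was 2.42 ± 0.21 from corticothalamic cells (SE, adjusted p = 2.29e-28, edgeR), 7.18 ± 0.40 from pyramidal tract cells (adjusted p = 2.82e-11) and 6.21 ± 0.32 from upper layer cells (adjusted p = 1.85e-13). It was the only higher gene of 14 tested neurexin ligands and partners against corticothalamic cells, where Nlgn1 and Cbln2 were lower. Nxph3 was again the only higher gene of 14 over the 59 cells, and none was lower. Col19a1, a collagen gene, stood at 80.5, 71.1, 99.8 and 58.5 CPM by library against at most 4.65 CPM in corticothalamic cells. Serpini1 was higher by 2.02 ± 0.19 than in corticothalamic cells (adjusted p = 2.98e-22). In the list of secreted and matrix proteins 3 of 20 genes were higher against corticothalamic cells and 3 lower (Vcan, Tnc and Ntf3). In the 59 cells 4 of 20 were higher, among them Sparc and Igfbp4, whose direction reversed without the 6 cells, and 2 were lower.

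Receptors for neuromodulators were a second group in which many genes were higher. Of 18 tested against corticothalamic cells, 8 were higher in the 53 cells and 1 lower. Against pyramidal tract cells 6 of 12 were higher and 1 lower, and against upper layer cells 9 of 15 were higher and 1 lower. The median log2 differences of the receptors were 0.77, 1.41 and 1.97, against -0.08, -0.04 and -0.06 over all genes tested. Of all genes tested, 2.96, 3.62 and 4.99% were higher. The list shares Lpar1, Hcrtr2, Htr1d and Rxfp1 with the layer 6b list. Over the 59 cells the higher counts were 7 of 19, 4 of 14 and 7 of 14, with none lower.

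Adra2a, the alpha-2A adrenergic receptor for noradrenaline, was higher than in each of the 3 classes. It stood at 119, 69.0, 114 and 80.4 CPM by library and at 5.98, 8.11, 5.32 and 7.31 CPM in corticothalamic cells. Every layer 6b library lay above every corticothalamic library, and the log2 difference was 3.71 ± 0.39 (SE, adjusted p = 1.98e-18, edgeR). Hcrtr2, the orexin receptor type that responds to both orexins, stood at 38.4, 35.6, 85.5 and 21.9 CPM against 3.66 to 9.96 CPM, a log2 difference of 2.53 ± 0.49 (adjusted p = 2.04e-05). It was detected in 18 of the 53 cells. Chrm3, the M3 muscarinic receptor for acetylcholine, stood at 47.5, 43.9, 28.5 and 73.1 CPM against 6.32 to 9.73 CPM, higher by 2.44 ± 0.44 (adjusted p = 3.48e-06). Chrna4, a nicotinic acetylcholine receptor subunit, was higher by 1.54 ± 0.30 (adjusted p = 1.3e-05), a call that did not pass over the 59 cells (1.18 ± 0.37, adjusted p = 0.135). Htr2a, the serotonin 2A receptor, was higher by 1.66 ± 0.36 (adjusted p = 0.000175), with its highest level, 143 CPM, in the 3 cells of cKO 1. Npy1r, a neuropeptide Y receptor, was lower by 1.58 on the log2 scale, with 0 CPM in control 1 and cKO 1, and did not pass over the 59 cells.

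**Figure D5:**
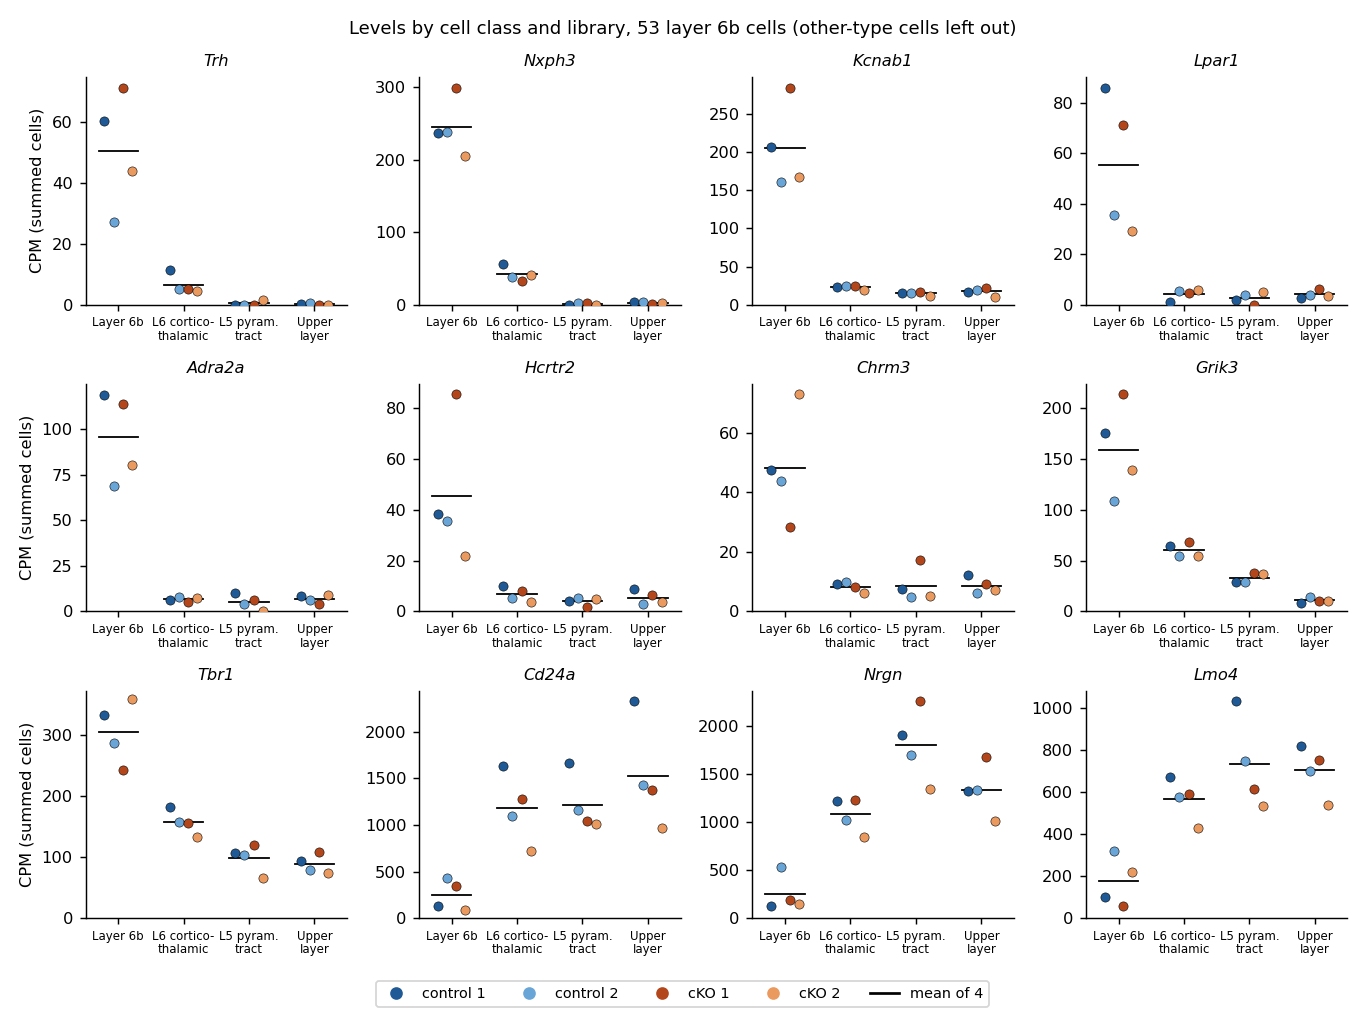
Levels in CPM of 12 genes in the 53 layer 6b cells and in 3 other classes, 1 point per library with a line at the mean of the 4 libraries. Trh, Nxph3, Kcnab1, Lpar1, Adra2a, Hcrtr2, Chrm3, Grik3 and Tbr1 lie higher in layer 6b cells, and Cd24a, Nrgn and Lmo4 lie lower, with control 2 the highest layer 6b library for those 3.

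Transcription factors of deep layers were more often higher against the upper layer and pyramidal tract cells than lower. Tbr1, a T-box factor of early-born cortical neurons, stood at 333, 287, 242 and 358 CPM by library against 132 to 182 CPM in corticothalamic cells, a log2 difference of 0.89 ± 0.17 (SE, adjusted p = 2.06e-05, edgeR). Over the 59 cells, where Tbr1 was 96.9 CPM in cKO 1, that difference was 0.58 ± 0.24 (adjusted p = 0.309). Lmo3 was higher than in corticothalamic cells by 1.19 ± 0.17 (adjusted p = 1.3e-09) and Tshz3 by 0.97 ± 0.19 (adjusted p = 2.7e-05), and neither passed over the 59 cells. Of this list, 4 of 15 genes were higher and 3 lower against corticothalamic cells, 8 of 16 higher and 1 lower against pyramidal tract cells, and 11 of 16 higher and 1 lower against upper layer cells. The counts over the 59 cells were 0 of 15 higher and 1 lower against corticothalamic cells, 4 of 15 and 1 against pyramidal tract cells, and 7 of 15 and 1 against upper layer cells. Tle4, a corepressor of layer 6, was read by the corticothalamic gate and not tested there; from pyramidal tract cells it differed by 5.40 ± 0.30 (adjusted p = 2.58e-11). Hs3st4, a heparan sulfate enzyme gene of layer 6, differed from them by 4.56 ± 0.35 (adjusted p = 6.56e-09). Of the 59 cells, 36 would also have passed the corticothalamic gate.

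Synaptic and channel genes differed from corticothalamic cells in both directions in the 53 cells, and fewer passed over the 59. Snap25, a core protein of vesicle fusion, stood at 1026, 995, 969 and 994 CPM in the 53 cells, higher than in corticothalamic cells by 0.54 ± 0.14 (SE, adjusted p = 0.00518, edgeR), and did not pass over the 59 cells. Syt4, a synaptotagmin, was lower by 1.40 on the log2 scale (adjusted p = 3.18e-12) and was lower over the 59 cells as well. In the vesicle release list 3 of 12 genes were higher and 2 lower in the 53 cells, and 0 and 2 over the 59. Grik3, a kainate receptor subunit, stood at 176, 109, 214 and 139 CPM against 54.7 to 68.0 CPM in corticothalamic cells, a log2 difference of 1.26 ± 0.22 (adjusted p = 9.56e-07), and was called over the 59 cells too. It was 1 of 2 higher among 22 glutamate receptor genes, with 3 lower, and over the 59 cells it alone was higher, with none lower. Among 14 GABA receptor subunits 3 were higher, Gabrd by 2.62 ± 0.64 (adjusted p = 0.00169), and Gabra4 was lower; over the 59 cells none was higher and Gabra4 was lower. Among 26 potassium channel genes 3 were higher, with Kcnip3 at 1.41 ± 0.26 (adjusted p = 3.56e-06), and 2 were lower, against 2 higher and 1 lower of 27 over the 59 cells. Kcnq5, a subunit of the M-type current, was detected in 5 of the 53 cells and was lower than in each class, by 2.24 on the log2 scale against corticothalamic cells (adjusted p = 0.000263).

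Against corticothalamic cells, axon guidance and adhesion genes were split in the 53 cells, while over the 59 cells the genes that passed were all lower. Of 30 guidance genes tested against corticothalamic cells, Sema5a, Efna5 and Epha7 were higher and Epha4, Ephb1 and Sema6a lower. Epha4, an ephrin receptor, stood at 60.3, 278, 28.5 and 80.4 CPM, so that control 2 matched the 277 CPM of its corticothalamic cells while the other 3 libraries lay below theirs. Of 22 cadherins 4 were higher (Pcdh17, Cdh13, Pcdh11x and Cdh18) and 3 lower (Pcdh15, Pcdh10 and Cdh8). None of the 30 guidance genes was higher over the 59 cells and 3 were lower (Ephb1, Plxna4 and Epha4), and none of the 22 cadherins was higher and 2 were lower (Pcdh15 and Pcdh10).

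Cd24a, Nrgn and Lmo4, which are abundant, were lower in layer 6b cells than in all 3 classes, in the 59 cells as well. Cd24a, a surface glycoprotein of young neurons, stood at 133, 433, 342 and 87.7 CPM by library against 716 to 1634 CPM in corticothalamic cells, a log2 difference of -2.46 ± 0.17 (SE, adjusted p = 7.19e-43, edgeR). Nrgn, the calmodulin-binding protein neurogranin, stood at 121, 537, 185 and 146 CPM against 842 to 1235 CPM, a difference of -2.30 ± 0.17 (adjusted p = 1.22e-37). Lmo4, a LIM-domain transcriptional regulator, stood at 101, 320, 57.0 and 219 CPM against 428 to 671 CPM, a difference of -1.75 ± 0.18 (adjusted p = 1.22e-19). In all 3 genes control 2 was the highest layer 6b library and still lay below each corticothalamic library. Foxp1, a relative of Foxp2, was lower than in corticothalamic cells by 0.94 on the log2 scale, but cKO 1 stood at 599 CPM, above all corticothalamic libraries, and the call did not pass over the 59 cells. Fabp7, a fatty acid-binding protein of astrocytes and radial glia, was lower by 1.05 on the log2 scale, and 3 of 6 genes of the astrocyte list were lower. Fabp7 did not pass over the 59 cells (adjusted p = 0.0504), and 1 of the 6, Aldoc, was lower. The summed level of that list was 969, 2160, 385 and 1864 CPM in the 53 cells and 1381, 3181, 1719 and 4696 CPM in corticothalamic cells by library; its part in these differences was not tested.

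The 6 cells with other-type markers also shaped the class comparison of the 59. Against corticothalamic cells, Cldn5, the claudin of the endothelial barrier, was among the genes with the largest positive differences, at 491, 164, 872 and 462 CPM by library. Without the 6 cells it stood at 0, 2.09, 0 and 7.31 CPM. All 4 endothelial genes tested were higher against corticothalamic cells over the 59 cells, and none reached the test over the 53.

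Whether the genotype difference in layer 6b cells departed from that in corticothalamic cells was tested with an interaction term. Over the 59 cells none of 11682 genes passed in edgeR (0%) or DESeq2, with 536 at an unadjusted p under 0.05. Over the 53 cells 10 of 11134 passed (0.0898%), 6 higher (0.0539%) and 4 lower (0.0359%). For Foxp2 the difference of differences over the 53 cells was 0.01 ± 1.19 (SE), for Drd 0.00 ± 0.35 and for Sfxn1 -0.46 ± 0.26, and none was called; these errors do not show that the genotype differences were equal. Leaving out cKO 2 gave 1045 calls over the 59 cells, and leaving out control 1, control 2 or cKO 1 gave 10, 0 and 9.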

How the data were processed

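Counts of unique molecular identifiers per gene and cell were deposited by the authors as 1 table per sort, unnormalized, with library and batch labels in a cell table. Per the submitters' processing notes, reads were handled with bcl2fastq 2.17.1.14, Cell Ranger 2.1.1, UMI-tools 0.5.4, STAR 2.5.2b, featureCounts (Subread 1.6.2) and SAMtools 1.6 on GRCm38.p6 (mm10). In the deposited counts the value 2 is 0.307 to 1.69 times as frequent as the value 1, depending on the library, so a count is not taken here as exactly 1 molecule, and counting intervals may be too narrow.

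Cells were gated in each library by the rule given in the report. Counts were summed per class and library and tested with edgeR 4.0.16 (R 4.3.3; TMM factors, filterByExpr, quasi-likelihood test, Benjamini-Hochberg threshold 0.05), with no block between genotypes and with library as a term between classes; an SE is the log2 fold change divided by the root of the F statistic. CPM are counts scaled to 1000000 of those sums. The alternatives were DESeq2 1.42.0, RLE factors, no filter, the batch as a block, each library left out, control libraries only, at least 4 markers and gates on cells thinned to 5000 counts. The tests were checked on data simulated from the sums of the 59 cells. For changes of 1, 2 and 3 log2 units, the genotype test recovered 1 of 67, 39 of 67 and 58 of 66 changed genes. The interaction test recovered 1 of 67, 16 of 67 and 40 of 66. A gene that was not called can therefore still differ, above all by 1 log2 unit or less. Unchanged genes were called as well, 6 of 6178 in the genotype test and 2 of 11496 in the interaction test. The pyramidal tract test called 24 of 8191 unchanged genes beside 18, 58 and 65 changed ones. The upper layer test called 15 of 8832 beside 23, 58 and 65, and the corticothalamic test 4 of 10566 beside 14, 49 and 64. Some calls between classes can therefore be false. Comparison classes needed Slc17a7 or Neurod6, no Gad1 or Gad2, at least 3 genes of the class list, and Syt6 or Rprm (corticothalamic), Pou3f1 or Fam84b (pyramidal tract) or Cux2 or Rasgrf2 (upper layer). Doublet scores were computed per library; 1 layer 6b cell had a high score and was kept. Replicate numbers pair the libraries by batch, as the labels state; the deviations of same-numbered libraries correlated at 0.0624 over 6378 genes in the 59 cells and at 0.183 over 5703 genes in the 53. The p-values rest on the spread between libraries, which may be technical and which each fit shares over genes. The fits differ in how far they do so, so adjusted p-values and numbers of calls are not directly comparable between classes.

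The members and gene lists were chosen with earlier results of these data known. For each fit, up to 10 genes in each direction were named by size of change among those past the threshold with the same sign in every library or groups that do not overlap, leaving out gate genes and gene models with no symbol; where fewer than 5 passed, the 5 with the smallest p were eligible. Foxp2, Drd, Sfxn1, the markers and up to 4 genes of each list in each direction, or 3 by level where none passed, were added. Some genes that meet this rule are not reported here.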

Additional observations from a re-analysis of the deposited data

Results flagged for a closer look

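For 10 genes the genotype difference in the 53 layer 6b cells departed from that in corticothalamic cells by the interaction test (edgeR, adjusted p under 0.05), and each value below is that difference of log2 fold changes. None of the 10 was called over the 59 cells. The cKO 1 library has 3 such cells, and values that rest on it rest on those 3.

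Genes with the larger cKO-minus-control difference in layer 6b cells were Cbln2 (2.65), Mbp (2.603), Npy (2.39), Ccl27b (2.39), Tshz2 (2.31) and Actb (0.807). A single cKO library carried most of the difference in 4 of them: Cbln2 stood at 228 CPM and Tshz2 at 855 CPM in cKO 1, and Mbp at 205 CPM and Npy at 409 CPM in cKO 2, while the other cKO library of each lay between 14.3 and 110 CPM. Actb stood at 4422, 5557, 9192 and 7626 CPM by library (control 1, control 2, cKO 1, cKO 2), with both cKO libraries above both controls. Genes with the smaller difference in layer 6b cells were Slc1a3 (-1.55), Ptprz1 (-1.30), Cst3 (-1.20) and Fabp7 (-1.05). Slc1a3, an astrocyte glutamate transporter gene, stood at 190, 406, 42.8 and 439 CPM in layer 6b cells and at 164, 709, 313 and 1198 CPM in corticothalamic cells, in the same order. Slc1a3 and Fabp7 belong to the astrocyte list, so its summed level, given in the report, includes them and is no separate measure for them. The part of astrocyte transcripts in these differences was not tested.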

How the results depend on the processing

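The share of layer 6b cells kept its direction in the alternatives run, while 2 libraries against 2 cannot give a p below 0.333, so its p says nothing about stability. Without 1 library the share difference ranged from -0.810 to -0.390 percentage points, and it was -0.210 with at least 4 markers and -0.168 with thinned gates. Foxp2 was lower in the cKO in each alternative that gave it a value and passed in none; it had no value without control 2, with at least 4 markers, with thinned gates, or in the 53 cells without either control, and DESeq2 gave it no adjusted p over the 59 cells. Drd was called with the replicate block (-1.71) and without cKO 2 (-2.26; range without 1 library -2.26 to -1.02 over both sets of cells) and in no other alternative. Of 5 genes called between genotypes, DESeq2 gave 21, RLE factors 1, no filter 126, the replicate block 80, at least 4 markers 80, thinned gates 0 and libraries left out 8 to 494. Without the 6 other-type cells there were 0, also with DESeq2, 6 with the block, and 1 to 45 with a library left out. In the class and interaction fits the library term takes up a batch difference common to both classes. The interaction fit had no term for a batch difference that is unlike between the classes. Calls against corticothalamic cells (321) became 577 with no filter, 653 in control libraries only, 65 with at least 4 markers, 711 without the 6 cells and 73 to 793 with a library left out. Against pyramidal tract cells (163) they became 280 with DESeq2, 587, 484, 83, 323 with thinned gates, 541 and 10 to 600. Against upper layer cells (328) they became 743, 834, 104, 893 and 13 to 854. Interaction calls (0) became 9 with no filter, 70 with at least 4 markers, 10 without the 6 cells and 0 to 1045 with a library left out. Apart from the other-type cells, whose counts are given in the report, the cause was not tested.

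Directions reversed in 14 cases. Without the 6 cells, Hbb-bs (0.24), Igfbp4 (-1.07), Rgs5 (-1.31) and Sparc (-0.50) reversed against corticothalamic cells, Igfbp4 (-1.52) against pyramidal tract cells, and Jun (-1.24) and Sparc (-0.55) against upper layer cells. Thinned gates reversed Igfbp4 (-0.59) and Sparc (-1.50) against corticothalamic cells and Cck (0.21) against pyramidal tract cells. At least 4 markers reversed Reln (-2.39) against corticothalamic cells. Leaving out control 2 reversed Hbb-bs (0.51) there (range without 1 library -4.01 to 0.51), and leaving out cKO 2 reversed Pdgfra between genotypes (-7.68 to 1.20) and Reln in the interaction (-4.15 to 2.32). The cKO levels of the 53 cells rest on 3 and 8 cells.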

Other observations

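The second sort of the series, for golli-τ-eGFP, held almost no cells that pass the same rule. They were 0 of 3948 cells in control 1, 2 of 3071 in control 2, 2 of 1440 in cKO 1 and 0 of 2923 in cKO 2. Its cells were shallower, with medians of 1085.5, 1163, 2982 and 1268 counts in those libraries, and a rule that needs several detected genes finds fewer cells at that depth, so no comparison between the sorts was made.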
